A study of Drosophila melanogaster with 3 samples.

Results

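The Tet gene of Drosophila melanogaster carried 21 of the 7089 CG44002-eGFP summits in the authors' reproducible set, the peaks that passed their irreproducible discovery rate (IDR) step, which scores whether replicates rank a peak alike. They are the summits that fell in the gene body or in the 10 kb on either side of it, and the gene itself was chosen from these measured positions and signals, so its counts and ranks are given as a description without a test. The data were chromatin immunoprecipitations followed by sequencing (ChIP-seq) from whole prepupae of both sexes, the stage between larva and pupa, in 1 group of 3 biological replicates with no contrast. The animals carried a CG44002 transgene with eGFP at its C-terminal end, the labels name the strain and the antibody target after CG34406, an older name that the RefSeq gene table gives both to CG44002 and to a neighbouring pseudogene, and precipitation was with an antibody to GFP. The age of the animals was not stated. Because whole animals were used, strong binding in a few cells and weak binding in many cannot be told apart. Read depth is unknown, so no value here carries a counting error of its reads.

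TET proteins are dioxygenases that in mammals oxidise methylated cytosine in DNA. The fly genome carries very little methylated cytosine and holds a lone TET gene, whose product has been linked to oxidised cytosine in RNA and to methyladenine in DNA. The gene makes a long form with a CXXC zinc finger, a domain that in mammalian relatives binds DNA rich in CG pairs, and a short form without it. Both forms carry the catalytic domain.

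Tet (FBgn0263392) lies on the minus strand at 3L:2786207-2879158 of dm6 and is 92952 bp long. Of its 6 annotated transcripts, 4 begin at 2879158 and encode the long forms, with coding lengths of 8580 to 8763 bases. The other 2 transcripts begin at 2821103, which is 58055 bp further along the gene, and encode the short form with 6168 coding bases. All 21 summits lay inside the gene and none in the flanks. They are numbered S1 to S21 in the direction of transcription, and every one was intronic in the long form Tet-RE. Exons make up 14.9% of the gene, and 0 of 21 summits lay in one. That count allows a share of up to 14.3% if the limit is set at 3 counts. The 95% exact binomial interval allows up to 16.1%. The exon share lies between these limits, and neither is a test, since the gene was chosen from these positions. In the other coding genes of 60 to 140 kb, 22 of 871 pairs of a summit and a gene, or 2.53%, put the summit in an exon of that gene. Both limits for Tet take in that low share, so 0 of 21 does not set Tet apart from those genes.

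The 100 bp centred on 7 of the summits are shown because they cover the 6 sites with the highest signal and the site closest to each start (S15 for the short form and S1 for the long form), from which the differences in base content described further on can be read. The sequence is that of the RefSeq release 6 assembly (dm6), on the minus strand, 5′ to 3′. Capitals mark runs of 5 or more A or T bases.
S13, chr3L:2824168-2824267: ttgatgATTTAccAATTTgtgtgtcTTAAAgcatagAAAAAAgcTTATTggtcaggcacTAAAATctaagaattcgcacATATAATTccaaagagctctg
S10, chr3L:2835124-2835223: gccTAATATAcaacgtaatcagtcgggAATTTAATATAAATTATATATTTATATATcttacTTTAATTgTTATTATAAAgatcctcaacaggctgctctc
S8, chr3L:2847407-2847506: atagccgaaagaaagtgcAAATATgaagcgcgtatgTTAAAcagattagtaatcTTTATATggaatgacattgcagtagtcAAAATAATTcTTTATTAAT
S14, chr3L:2823120-2823219: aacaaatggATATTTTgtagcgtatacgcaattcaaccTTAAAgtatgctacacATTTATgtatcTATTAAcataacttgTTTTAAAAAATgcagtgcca
S3, chr3L:2869074-2869173: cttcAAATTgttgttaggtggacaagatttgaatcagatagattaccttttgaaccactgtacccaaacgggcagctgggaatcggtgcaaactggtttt
S15, chr3L:2821321-2821420: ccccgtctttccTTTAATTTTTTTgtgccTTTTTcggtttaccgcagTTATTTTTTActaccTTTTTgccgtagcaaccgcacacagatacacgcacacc
S1, chr3L:2873104-2873203: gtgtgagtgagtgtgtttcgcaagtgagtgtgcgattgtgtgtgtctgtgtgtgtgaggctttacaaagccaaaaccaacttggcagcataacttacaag
S10 held the longest run, 29 bases of A and T without interruption, and 53 of its 100 bases lay in such runs. S13, the strongest site, had 40 bases in 7 runs, none longer than 8. S3 and S1 looked different, with 5 and 0 bases in runs, and S1 is largely made of G and T in its first part. The runs of S15 were mostly tracts of T.

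The strongest binding in Tet lay just before the start of the short form. S13, at position 2824218 and 3115 bp upstream of that start, had a signal of 1148 and ranked 70 of the 7089 IDR peaks. It ranked 79, 71 and 52 among the 30000 peaks of replicates 1, 2 and 3. Each of the 3 libraries placed it within the strongest 100 peaks of its own list. S14, 2067 bp upstream of the same start at 2823170, had a signal of 366 and ranked 896, 976 and 1638 in the replicates. S15, 268 bp upstream at 2821371, had a signal of 203 and ranked 1523, 10360 and 2263. S15 was the least evenly ranked of these 3 sites, and replicate 2 left it outside its own 7089 highest-signal peaks.

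S10, the next strongest site, lay further upstream in the same intron at 2835174. Its signal of 802 gave rank 203, and it ranked 188, 212 and 196 in replicates 1, 2 and 3. S8, at 2847457, had a signal of 423 and ranked 1043, 862 and 674. S10 kept nearly the same rank in each library, and S8 ranked highest in replicate 3. S3 at 2869124 and S2 at 2869325, in intron 3 of the long form Tet-RE, are 201 bp apart with signals of 307 and 184. In replicates 2 and 3 a common peak, ranked 1558 and 994, covered both, so their ranks are not independent.

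**Figure D1:**
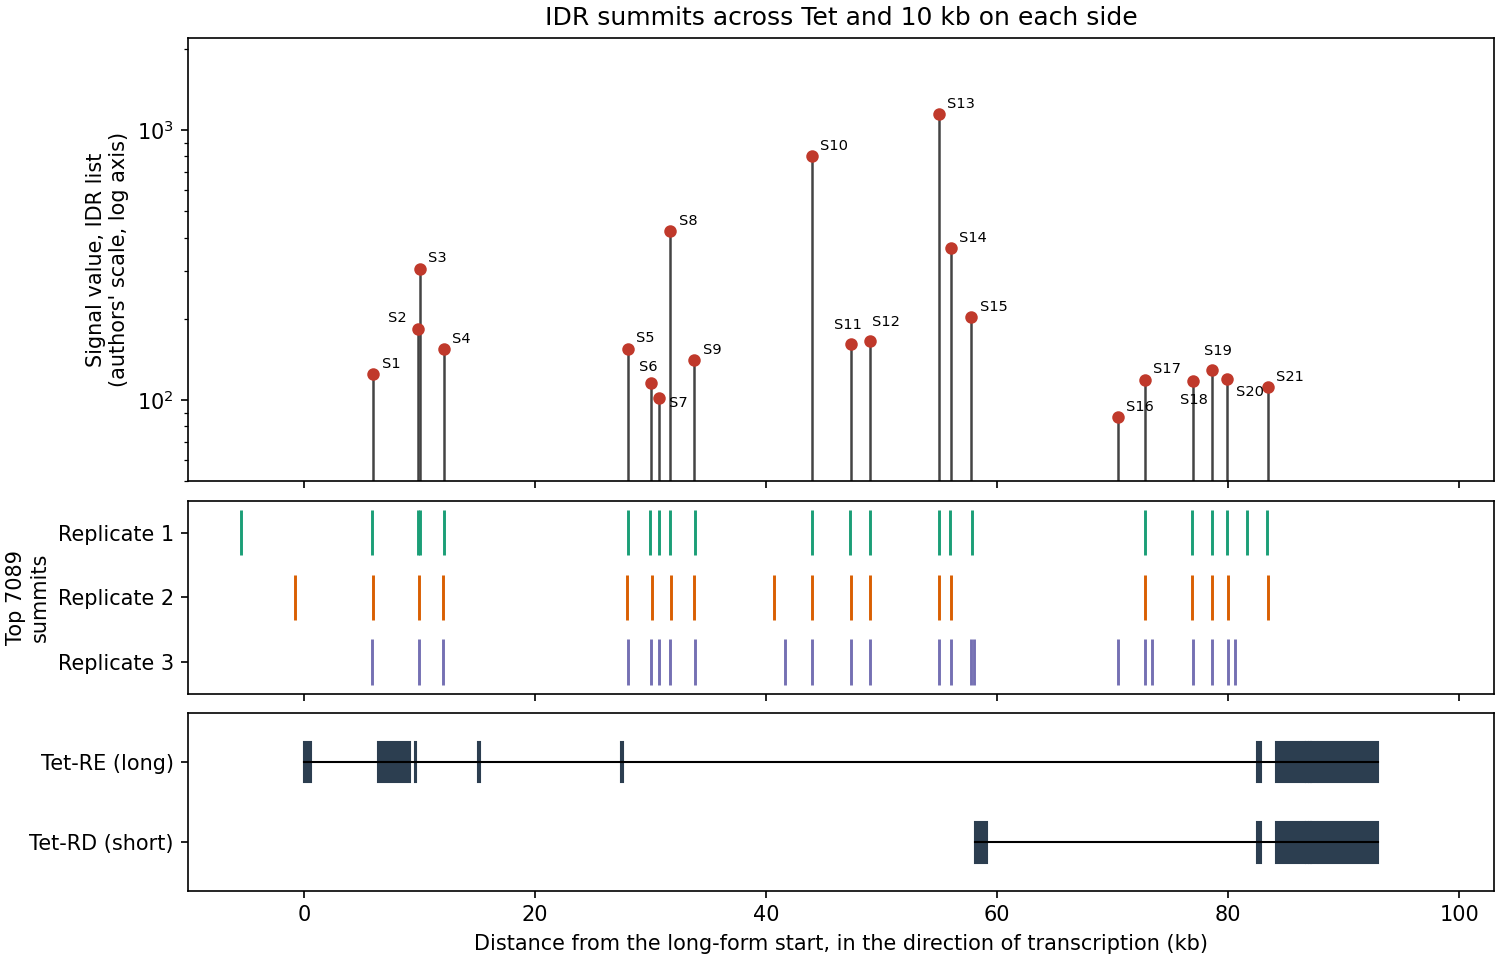
IDR signal (log axis, the authors' unstated scale) of the 21 summits against distance in kb from the long-form start in the direction of transcription, above ticks for the 7089 highest-signal summits of replicates 1, 2 and 3 and the exons of Tet-RE and Tet-RD. S13, at a signal of 1148, and S10, at 802, stand above the rest, and 15 of the 21 stems lie before the short-form start.

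The start of the short form had an IDR summit nearby and the start of the long form did not. With a window of 500 bp, S15 marked the short start, giving 1 of the 2 starts of Tet. Among the other coding genes of 60 to 140 kb, 123 of 540 starts, or 22.8%, had an IDR summit that close, and over the genome 2724 of 13945 coding genes, or 19.5%, had 1 at any start. The 1 of 2 in Tet is too small a count to set against these shares. Replicate 1 had 1 summit within 500 bp of the short start among its 7089 strongest peaks, replicate 2 had 0 and replicate 3 had 2. At the long start none of the 3 replicates had such a summit. The nearest IDR summit was S1, 6004 bp into the gene, with a signal of 125. Weaker calls existed there. The pooled list held a summit 111 bp upstream of the long start at rank 20318, replicate 1 held one at rank 12727 in the same place, and replicate 3 held one 350 bp away at rank 15482. In replicate 2 the nearest was 752 bp away at rank 6997.

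Most sites filled the large intron that contains the short start. This is intron 5 of Tet-RE, at 3L:2796682-2851558 and 54.9 kb long, and it makes up 59.0% of the gene. It held 16 of the 21 summits, 76.2%, or 2.92 per 10 kb. Replicates 1, 2 and 3 had 16, 14 and 20 of their strongest 7089 summits in it, 16.7 ± 3.06 (SD, n = 3). Of the 16, 11 lay before the short start and 5 after it, in what is the first intron of the short form. Intron 3, of 5388 bp, held 3 summits, and introns 1 and 6 held 1 each. The neighbouring intron 4, at 3L:2851697-2864042 and 12346 bp long, held none in the IDR list and none among the strongest 7089 of any replicate. It was not empty of weaker calls, as the pooled list held 4 summits there. The strongest, at 2862392, had a signal of 78.6 and rank 7711, where the lowest signal in the IDR list was 84.9. It ranked 8144, 8961 and 10682 in replicates 1, 2 and 3. The A+T content of intron 4, 58.1%, was close to the 59.2% of intron 5.

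Sites before the short start had a stronger median rank than those after it, with overlapping ranges. The 15 before it had IDR ranks of 70 to 5883 with a median of 3315, over 58.1 kb and at 2.58 per 10 kb. The 6 after it had ranks of 4461 to 6965 with a median of 4942, over 34.9 kb and at 1.72 per 10 kb. All 7 sites with a rank under 3000 lay before the short start. The separate libraries, from which the IDR list was made, put the medians in the same order. The sites before the start had median ranks of 2979, 3959 and 2605 in replicates 1, 2 and 3, against 6017.5, 4656.5 and 6115.5 for the sites after it. S16, the weakest of all, had a signal of 86.4 and ranked 7307, 11418 and 6060. Mean A+T content in 100 bp around the summit was 66.3% at the sites before the start and 66.7% at those after it.

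Across all 21 sites the median rank was 3635 and the median signal 155, against 158 for the whole IDR list. In all, 9 sites ranked above the middle of the list and 12 below it. The gene thus had a few strong sites and many near or below the middle of the list.

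**Figure D2:**
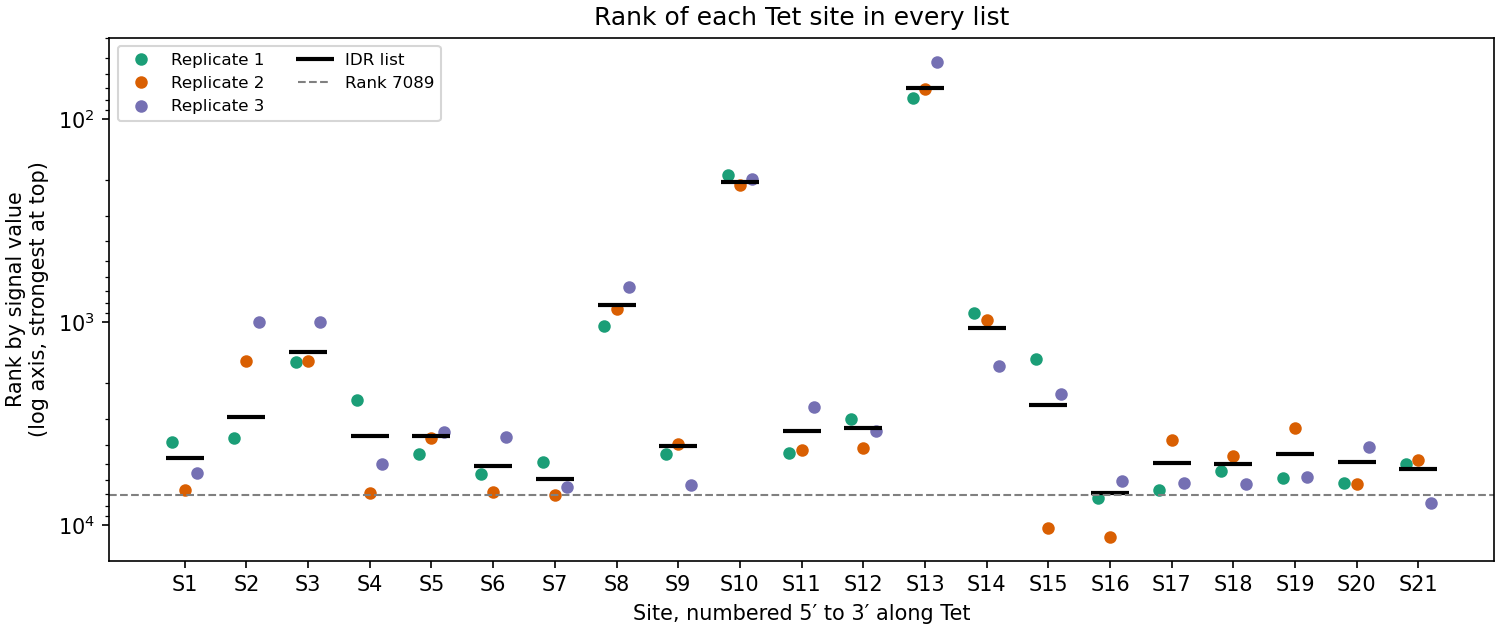
Rank by signal (log axis, strongest at the top) of S1 to S21 in replicates 1, 2 and 3 and in the IDR list, with a dashed line at rank 7089. S13 ranks 79, 71 and 52 in the 3 replicates, and 5 points fall below the line: S7, S15 and S16 in replicate 2, at 7098, 10360 and 11418, S16 in replicate 1, at 7307, and S21 in replicate 3, at 7755.

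Most Tet sites also lay inside the strongest peaks of the separate libraries, from which the IDR list was itself made. An IDR summit was counted as found when it lay inside 1 of the 7089 strongest peaks of a replicate. By that measure 17 of the 21 sites, 81.0%, were found in all 3 replicates (95% exact binomial interval 58.1% to 94.6%, counting error only), against 67.4% of all 7089 IDR summits and 66.5% of those in the other long genes. The interval takes in both of those shares. It treats the sites as independent draws, and the gene was chosen with these values known, so it is not a test. S7, S15 and S21 were found in 2 replicates and S16 in 1. With the strongest 5000 peaks of each replicate instead, 9 of the 21 sites, 42.9%, were found in all 3, against 50.1% of all IDR summits. Each of the 21 lay inside some peak of every full replicate list, as did 96.3% of all IDR summits. Among their 7089 strongest peaks, replicates 1, 2 and 3 held 20, 18 and 20 of the sites. The replicate summits stood close to the IDR summits, with a median distance of 17 bp over 63 pairs and a largest distance of 119 bp. Over the 21 sites the Spearman correlation of ranks was 0.53 between replicates 1 and 2, 0.77 between 1 and 3 and 0.62 between 2 and 3. These sites share their libraries, and S2 and S3 share a peak.

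The sites were unevenly spaced. The 20 distances between neighbours ran from 201 bp to 15.9 kb with a median of 2088.5 bp. In the other long genes the median of 732 distances was 3553 bp. The long genes with densities most like that of Tet, named further on, had medians on both sides of its value. These were 1489 bp in rdx, 1904 in sbb, 1967 in Tlk, 2220 in ush, 2533 in CG12535 and 3727 in CG43658. Of the Tet distances, 8 were under 2000 bp, or 40%, against 33.2% in the other long genes. The median distance among the strongest 7089 summits was 1899.5, 3235 and 2076.5 bp in replicates 1, 2 and 3. The median of 2088.5 bp from the IDR list lay inside that range. The widest stretch without a site, 15.9 kb between S4 and S5, takes in all of intron 4. The next, 12.7 kb between S15 and S16, spans the short start. A stretch of 10.2 kb separated S9 from S10. These stretches are empty in the IDR list only, and the pooled list held 6, 3 and 9 weaker summits in them. Between S9 and S10, replicate 2 had a summit at 2838439 at rank 5144, and replicate 3 had one at 2837533 at rank 5441.

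The edge of the list falls within the range of the weakest Tet sites. Inside it, S16 had a signal of 86.4, where the lowest in the IDR list was 84.9. Just outside it, the pooled list held a summit at 2838385 in the intron with a signal of 84.2 at rank 7157. It ranked 14101, 5144 and 7313 in replicates 1, 2 and 3. The next outside were 2832039 with 81.3, 202 bp from S11, and 2805714 with 81.1. The gene body held 64 pooled summits in all, 43 of them outside the IDR list, and 64, 50 and 60 summits in the full lists of replicates 1, 2 and 3 (58 ± 7.21, SD, n = 3). The count of Tet sites depends on where the list ends, whereas S13, S10, S8 and S14 lie far from that end.

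The genes next to Tet had no sites of their own in the window. mRpS35, a protein of the mitochondrial ribosome, Pgant6, an enzyme that attaches N-acetylgalactosamine to proteins, spz5, a ligand of the Spätzle family, and the non-coding gene lncRNA:CR44531 had no IDR summit in their bodies or near a start. The start of Atg2, which acts in autophagy, had a summit of rank 337 at 267 bp, outside the window. Replicate 1 had 1 of its strongest 7089 summits in the flanks, replicate 2 had 1 and replicate 3 had 0.

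The DNA under the sites was richer in A and T than the DNA beside them. The 100 bp around the 21 summits held 66.4% A+T ± 7.70 (SD over sites), against 57.8% ± 7.57 in windows 500 bp to either side. Content ran from 54% at S1 to 77% at S7. It exceeded the mean of its own flanks at 16 of 21 sites, 76.2% (95% exact binomial interval 52.8% to 91.8%), against 81.8% of sites in the other long genes and 83.2% of all IDR summits. At S1, S11, S15, S18 and S19 it did not. The interval takes in both of those shares. It treats the sites as independent draws, and the gene was chosen from these positions, so it is not a test. The A+T level at all IDR summits was 67.8% and in the other long genes 67.7%. The whole Tet gene held 57.5% A+T, against 57.8% for the chromosome arms. Replicates 1, 2 and 3 gave 67.1%, 69.4% and 66.3% at their own Tet summits. A+T content and signal had a Spearman correlation of −0.21 over the 21 sites, which share libraries, and S13, the strongest, had 67% while S10 had 73%.

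**Figure D3:**
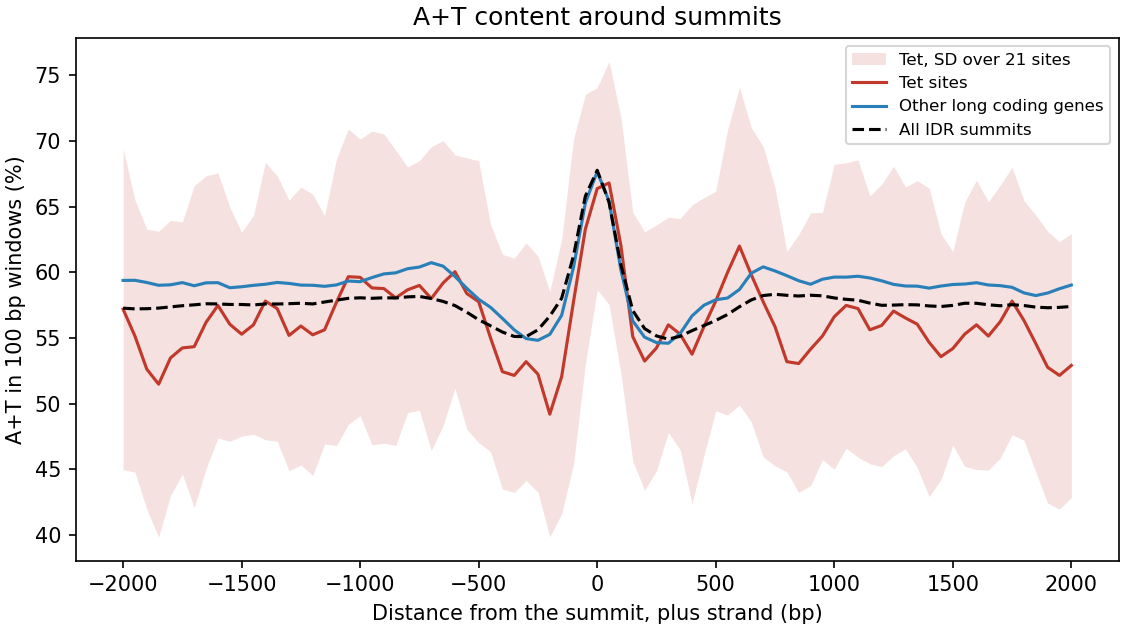
Mean A+T content (%) in 100 bp windows against distance from the summit in bp, plus-strand direction, for the 21 Tet sites with a band of 1 SD over sites, for sites in the other coding genes of 60 to 140 kb and for all IDR summits. At the summit the curves read 66.4%, 67.7% and 67.8%. The curves for the other long genes and for all IDR summits are highest there. The Tet curve is highest 50 bp after the summit, at 66.8%. It reads 49.2% at 200 bp before the summit and 53.2% at 200 bp after it.

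By median, runs of A or T were longer at the Tet sites than beside them and level with those at all IDR summits. The longest run of A or T per site had a median of 11 bases, against 7.5 in the flanking windows and 10 at all IDR summits. Its maximum was 29 bases both at the sites, in S10, and in the flanking windows, and 54 at all IDR summits. Bases inside runs of 5 or more had a median of 35 per site, against 19 in the flanks and 35 at all IDR summits. They ranged from 0 at S1 to 53 at S10. The longest tract of a single base had a median of 4 bases at the sites, against 5 in the flanks and 5 at all IDR summits. Short strings were sought on both strands of the same windows. TATAAA, the core of the TATA box, occurred at 8 of 21 sites and in 7 of 42 flanking windows, against 24.0% of all IDR summits. AAAAAA occurred at 8 sites and in 11 flanking windows, against 31.8% of all IDR summits. CACACA occurred at 5 sites and in 6 flanking windows, against 6.05% of all IDR summits. TATTTNTA, which resembles the core bound by Mef2, occurred at 4 sites and in 1 flanking window, against 13.3% of all IDR summits. TAATTA, a homeodomain core, occurred at 2 sites and in 2 flanking windows, against 10.9%. GAGAG, the string of GAGA factor, occurred at 1 site and in 4 flanking windows, against 9.69%. TATCGATA, the core of the DNA replication-related element, and CACGTG, an E-box, were in none of the 21 windows and none of the 42 flanking windows, against 0.677% and 0.409% of all IDR summits. Strings can overlap one another, and a match is a description of letters only.

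Tet was among the long genes with the densest sites. At 2.26 summits per 10 kb it took place 4 among 199 coding genes of 60 to 140 kb and place 3 by number of summits. The other 198 had a median of 0.306 per 10 kb with quartiles of 0 and 0.874, and 59 of them had none. From the strongest 7089 summits of replicates 1, 2 and 3, Tet had 2.26, 1.94 and 2.47 per 10 kb, 2.22 ± 0.271 (SD, n = 3), and places 3, 6 and 3. By density in the IDR list, sbb, ush and rdx were ahead of it. By number of summits, sbb with 25 and CG1677 with 23 were ahead of its 21, CG1677 being named after its values were seen.

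sbb (scribbler), which encodes a nuclear zinc finger protein, had 25 summits at 3.16 per 10 kb, and 3.20 ± 0.263 in the replicates. Its density exceeded that of Tet in each of the 3 libraries. ush (u-shaped), a cofactor of the GATA factor Pannier, had 17 at 2.64 per 10 kb, and 2.33, 2.18 and 2.95 in replicates 1, 2 and 3, each above Tet in the same library. rdx (roadkill), an adaptor that targets the Hedgehog effector Ci for degradation, had 16 at 2.46 per 10 kb but 1.85, 2.15 and 1.85 in the replicates, above Tet in replicate 2 only. The replicate ranges of ush and of rdx overlapped that of Tet, whereas that of sbb did not. Tlk, the Tousled-like kinase, had 14 summits at 2.01 per 10 kb and 2.15, 2.44 and 2.15 in the replicates, above Tet in replicate 2 only. Its replicate mean of 2.25 took place 3, against 2.22 and place 4 for Tet, and their ranges overlapped. CG12535 had 13 at 2.13 per 10 kb and 1.97 in each replicate, also above Tet in replicate 2 only. CG43658 had 20 at 1.90 per 10 kb, and its replicate values of 1.71, 1.71 and 1.90 were below those of Tet in every library. Tet had 2 summits within the strongest 250 of the list, and 2 of the 198 other long genes had as many or more.

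**Figure D4:**
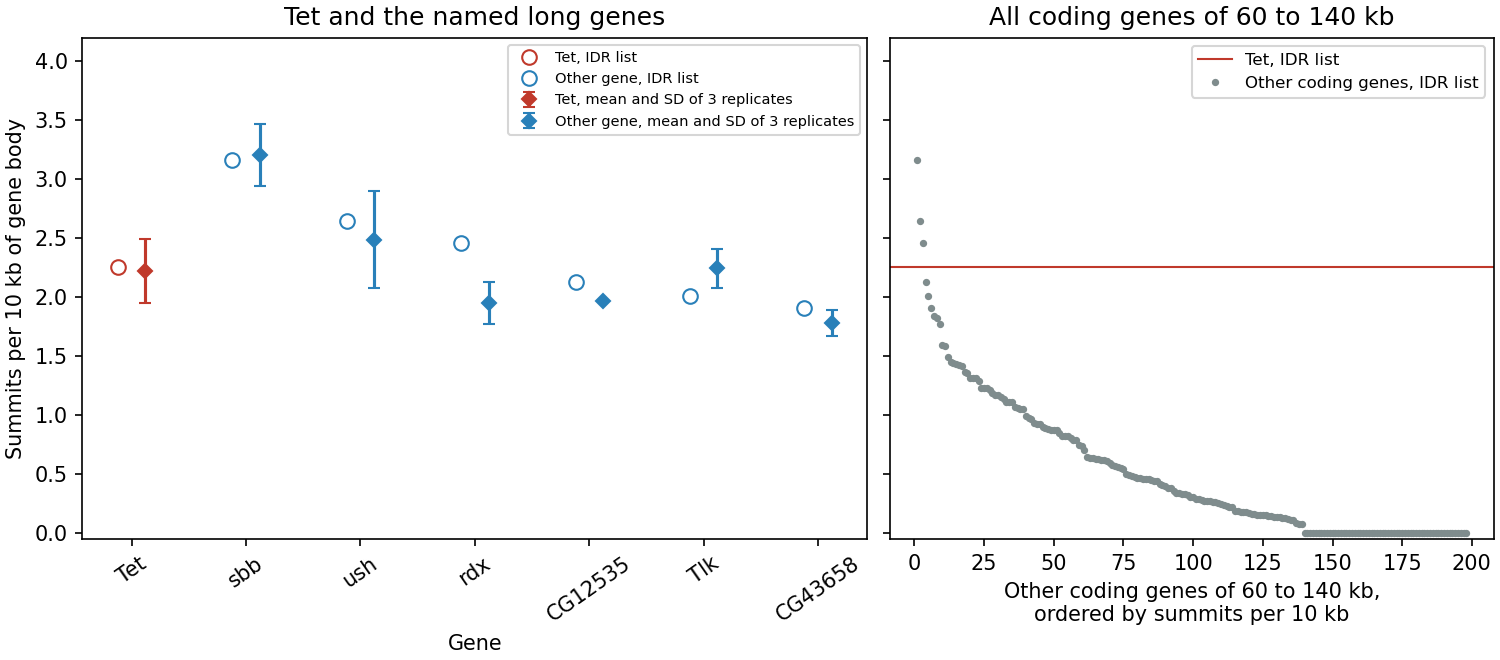
Summits per 10 kb of gene body in Tet and in the 6 named genes of 60 to 140 kb (left; open circle, IDR list; diamond and bar, mean and SD of 3 replicates) and in all 198 other coding genes of that length (right; points, with the Tet value as a line). Tet at 2.26 lies below rdx at 2.46, ush at 2.64 and sbb at 3.16, and above the median of 0.306.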

How the data were processed

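ChIP-seq peak lists from 3 biological replicates in 1 group were used. Per the deposited inventory and column order, the authors made for dm6 a list of 30000 peaks per replicate, a pooled list of 30000 and an IDR list, each from alignments and a control that was not analysed here. Lists on dm3 were not used. Chromatin was sheared to 200 to 800 bp, per the labels. The signal value the authors deposited for each peak has no stated scale and served only to rank or describe peaks within a list. The sources used here name no aligner, peak caller or IDR threshold. The IDR list holds 7089 peaks, which carry the top signals among the pooled peaks, so the same number of strongest peaks was taken from each replicate list for a mean and SD.

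Summits are the deposited start plus offset, written 1-based. No peak ran past the end of its arm in the release 6 assembly. Genes came from Ensembl release 115 (BDGP 6.54) without transposable elements, and genes of overlapping bodies were each counted. Introns are numbered in Tet-RE. A+T content was taken in 100 bp windows. Python 3.11.15, numpy 2.4.6, pandas 2.3.3 and scipy 1.17.1 were used, and the counting steps were tested on simulated data. Genes named are Tet, the genes within 10 kb of it, the 5 coding genes of 60 to 140 kb with the densest summits and the 5 nearest to Tet in density. The gene, the windows, the strings and these lists were chosen with earlier results of these data known. No test was run. Alternatives were the list end, windows, length bands, merging of close summits and leaving out each replicate.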

Additional observations from a re-analysis of the deposited data

How the results depend on the processing

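Leaving out a replicate meant keeping IDR summits found in both others, since the pooled list was not called again. Tet then had 1.83 to 2.04 summits per 10 kb against 2.26 with all, and 0 to 1 starts with a summit, 0 without replicate 1 and 0 without replicate 3, because S15 was not among the strongest 7089 peaks of replicate 2. Without replicates 1, 2 and 3, 81.0%, 90.5% and 85.7% of the Tet sites were kept, against 72.8%, 74.7% and 77.3% of all IDR summits. With only the stronger part of the IDR list, above its median, Tet had 9 summits, 0.968 per 10 kb, place 10, 64.6% A+T and 7 summits in intron 5. With 10 kb added on each side the density was 1.86 and the place 7. Among 451 coding genes of 40 to 200 kb the place was 12, and among 77 of 80 to 120 kb it was 1. Among 230 coding genes of 60 kb or more it was 4. A window of 50 bp gave 68.0% A+T, a distance of 200 bp to a start left 0 starts with a summit, and 9 sites, 42.9%, lay in the strongest 5000 peaks of all 3 replicates, against 50.1% of all IDR summits. Merging summits within 250 bp, chosen after seeing the data, left 20 sites and place 4. Of 57 alternative values, 41 moved by less than the replicate SD or stayed within 1.5 times, and 16 moved more. Some of the 41 could not have moved, so the tally does not measure stability. The flanks held no site, so smaller flanks left the count as it was. IDR peaks are the top of the pooled list, so their pooled ranks were the same. No Tet sites lay within 200 bp of each other, so merging at that distance left their count, density and spacing unchanged. No paired analysis was possible because there is 1 group. With read depth unknown, weak sites near the list end cannot be given a counting error.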

Other observations

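These 6-base strings, sought on both strands of the 100 bp windows, were picked after their counts at the Tet sites were seen. ATATAA occurred at 11 of the 21 sites and in 5 of 42 flanking windows, against 22.5% of all IDR summits. AGTTAT occurred at 7 sites and in 2 flanking windows, against 8.97% of all IDR summits. AAGTAT occurred at 7 sites and in 5 flanking windows, against 11.2% of all IDR summits, a contrast close to that of AGTTAT. Other strings at as many sites stood nearer to their share at all IDR summits. AAAATA occurred at 11 sites and in 12 flanking windows, against 39.5% of all IDR summits. AAAAAT occurred at 7 sites and in 11 flanking windows, against 38.1%. The contrast of the strings named first thus comes with their being picked, and was not tested.

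Summit spacing had a floor in these lists. The shortest distance between neighbouring summits was 199 bp in both the IDR and the pooled list. In the pooled list 11 of the 63 distances inside Tet lay between 190 and 260 bp, and none was shorter. Over the whole pooled list 4206 distances, 14.0%, fell in that range, against 675 in the next range of equal width. Pairs such as S2 and S3, 201 bp apart, stand at this floor.

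Among introns of 40 to 70 kb in 145 genes, a length range chosen after its values were seen, the large intron of Tet took place 3 with 2.92 summits per 10 kb, against a median of 0.356.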
